A study of Mus musculus with 2 samples.

Results

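Mir770, Mir673, Mir493, Mir341 and Mir370 are 5 microRNA genes on mouse chromosome 12 that lie in and beside the long non-coding RNA genes Meg3 and Rian. They were chosen by symbol and position, before the start of the Mirg microRNA cluster further along the chromosome. They are 5 of the 1973 microRNA genes in the deposited count tables, and all 5 were found. Their counts come from small RNA, below 30 nucleotides, of mouse embryonic midbrain, taken at day 12.5 of gestation. Replicate 2 was prepared from a pool of 88 embryos and replicate 1 from a pool of 120, all healthy animals of strain B6NCrl with both sexes mixed. The labels name them biological replicates, so they form 1 group and the study compares no treatments or genotypes. Pooling leaves no value for a single embryo, and p-values between the libraries measure only the spread between reads of these pools.

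Meg3 and Rian belong to the imprinted Dlk1-Dio3 domain, where the maternal chromosome expresses non-coding RNAs and the paternal one expresses protein-coding genes such as Dlk1. Long RNAs that run through Meg3, the stretch opposite to Rtl1, Rian and Mirg carry microRNAs and, in Rian, small nucleolar RNAs. A microRNA is cut from a hairpin in such a transcript, and the mature strand binds messenger RNAs mostly through its seed, bases 2 to 8. In human cells miR-370 is known as a regulator of the fatty acid oxidation enzyme carnitine palmitoyltransferase, and miR-493 as a suppressor of liver metastasis of colon cancer cells. No role is stated here for the other 3 microRNAs.

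The mature strands of the 5 genes are printed because their counts are the subject of what follows and because the seeds show whether the genes could be read as 1 family. They are from RefSeq on GRCm38.p6, with bases 2 to 8 in capitals.
miR-770-5p: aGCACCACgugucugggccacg
miR-770-3p: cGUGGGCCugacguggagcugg
miR-673-5p: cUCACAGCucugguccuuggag
miR-673-3p: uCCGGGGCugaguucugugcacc
miR-493-5p: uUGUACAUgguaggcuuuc
miR-493-3p: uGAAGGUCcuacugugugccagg
miR-341-5p: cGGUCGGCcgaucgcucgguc
miR-341-3p: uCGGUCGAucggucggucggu
miR-370-5p: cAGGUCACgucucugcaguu
miR-370-3p: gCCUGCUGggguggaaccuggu

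The 10 seeds all differ, so by seed the 5 genes form no family. Among all mature mouse microRNAs of the same table, 2 share a seed with them, and these are printed to show how far the match runs.
miR-1193-3p: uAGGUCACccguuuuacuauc
miR-6985-3p: cUCACAGCcaccuccucacag
The first has the seed of miR-370-5p and comes from Mir1193, which lies in the Mirg cluster of the same domain. The level of Mir1193 in replicate 2 was 1249 CPM, and in replicate 1 it was 1259 CPM, where CPM scales each library to 1000000 assigned counts. The second has the seed of miR-673-5p and comes from Mir6985 on chromosome 19, which had 1 count in replicate 2 and 3 in replicate 1. The deposited tables count reads per hairpin, so they do not show which arm of a hairpin the reads came from, and the level of any single seed was not measured.

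Only Mir341 and Mir370 lay in introns of every annotated transcript that spans them. On mm10 (GENCODE M21), Mir770 (ENSMUSG00000076451.1, chromosome 12 from 109563692 to 109563785) lies within Meg3, and 4 of the 11 Meg3 transcripts span it. It is intronic in all of these but 1, whose exon overlaps the hairpin. Mir673 (ENSMUSG00000076316.1, 109571990 to 109572080) starts 264 bases past the annotated end of Meg3, and Mir493 (ENSMUSG00000077025.2, 109580233 to 109580315) starts 8507 bases past it. Both are intergenic in this annotation, which goes against a description of all 5 as intronic. Mir341 (ENSMUSG00000070101.1, 109611500 to 109611595) and Mir370 (ENSMUSG00000065433.1, 109618258 to 109618336) lie in introns of Rian in both of the transcripts, of 20, that span them, 6.66 kb apart. All 5 are on the plus strand and cover 54.6 kb, with the widest gap, 31.2 kb, between Mir493 and Mir341, where Rtl1 lies on the minus strand.

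Replicate 2 held 2805487 reads assigned to microRNA genes on their own strand and replicate 1 held 4629302. Of 13 symbols listed as neural markers, 9 matched a gene in the tables, and all 9 had counts in both libraries. Their summed level was 35609 CPM in replicate 2 and 28049.6 CPM in replicate 1. Mir124a-2 and Mir124a-3, with mean levels of 14.581 and 5.374 CPM, were listed under other symbols. They were therefore missed and are not in that sum. Most of the sum was Mir92b, a microRNA of neural progenitors, at 27886 CPM in replicate 2 and 19483 CPM in replicate 1. Reads that map to more than 1 place, 33.4% in each library, are outside these counts. How far this lowers genes with several copies, such as Mir9-3 and Mir128-1, was not tested. The higher sum in replicate 2 did not hold for each gene of the list. Log2 ratios of replicate 2 over replicate 1 were 0.52 for Mir92b, 0.61 for Mir128-1 and 0.68 for Mir128-2. They were -0.25 for Mir137, -0.36 for Mir9-3, -0.10 for Mir153 and -0.10 for Mir135a-2. The endothelial marker Mir126a stood at 26243 CPM in replicate 2 and 23434 CPM in replicate 1. Summed levels in replicate 2 and replicate 1 were 17444 and 11269.7 CPM for mural and mesenchymal markers, 1331 and 969 CPM for epithelial markers, 451 and 302 CPM for leukocyte markers and 398 and 213 CPM for Hox cluster markers of hindbrain and cord. They were 286 and 995 CPM for the choroid plexus marker Mir204, 242 and 399 CPM for erythroid markers, 69.5 and 8.64 CPM for the liver marker Mir122 and 22.8 and 22.5 CPM for muscle markers, of which Mir1a-1 and Mir133a-1 had no assigned reads. Apart from the muscle sum, which was nearly equal, these sums thus differed between the libraries in both directions. Most of the erythroid sum was Mir451a, with a log2 ratio of -0.81, while Mir144 stood at 0.20 ± 0.21 (counting SE). The part of these lists in the differences given below was not tested. In bulk tissue, fewer cells of a type and less RNA per cell cannot be told apart.

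Mir341 and Mir370, the pair within Rian, were the most abundant of the 5. Mir341 had 2054 counts in replicate 2 and 4278 in replicate 1, which is 732 CPM (95% Wilson interval 701 to 764) and 924 CPM (897 to 952). Its mean was 828 ± 136 CPM (SD, n = 2). Replicate 2 was the lower library, and the counting intervals of the libraries did not overlap. Mir370 had 1963 counts in replicate 2 and 3942 in replicate 1, or 699.7 CPM (669 to 731) and 852 CPM (825 to 879). Its mean of 776 ± 107 CPM (SD, n = 2) was close to that of Mir341, and again replicate 2 was lower without overlap. By mean level Mir341 ranked 107 and Mir370 ranked 111 among all 1973 genes, where the median of the 380 quantified genes, those with at least 10 counts in both libraries, was 148 CPM.

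Mir770, within Meg3, stood at an intermediate level. It had 837 counts in replicate 2 and 1612 in replicate 1, or 298 CPM (279 to 319) and 348 CPM (332 to 366), with a mean of 323 ± 35.3 CPM (SD, n = 2) and rank 158. Replicate 2 was lower and the intervals did not overlap.

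Mir673 and Mir493, both past the end of Meg3, were the least abundant. Mir673 had 356 counts in replicate 2 and 696 in replicate 1, or 127 CPM (114 to 141) and 150.3 CPM (139.6 to 162), with a mean of 139 ± 16.6 CPM (SD, n = 2). Here replicate 2 was lower, but the intervals overlapped. Mir493 had 379 counts in replicate 2 and 473 in replicate 1, or 135 CPM (122 to 149) and 102 CPM (93.4 to 112), with a mean of 119 ± 23.3 CPM (SD, n = 2). It was the only 1 of the 5 with the higher level in replicate 2, without overlap. They ranked 197 and 212, below the median level of quantified genes.

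**Figure D1:**
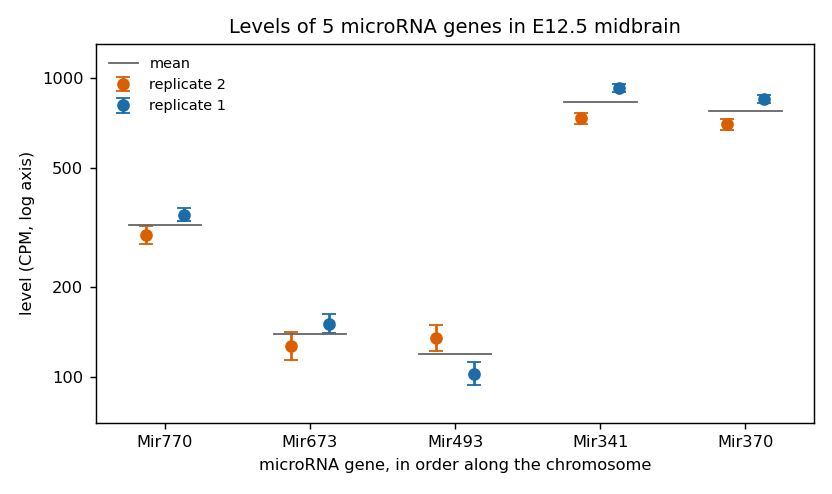
Level of each gene in CPM (log axis) in replicate 2 (orange) and replicate 1 (blue), with 95% Wilson intervals for counting error and the mean of both as a line. Mir341 and Mir370 lie highest, from 699.7 to 924 CPM, and Mir493 is the only gene of the 5 whose replicate 2 value is above its replicate 1 value.

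The order of mean levels was Mir341, Mir370, Mir770, Mir673 and Mir493, over a 6.98-fold range. Neighbours in that order were said to differ where their values did not overlap across the libraries and their means ± SD did not meet. By that rule Mir370 and Mir770 differed, with means 2.40-fold apart, and so did Mir770 and Mir673, 2.33-fold apart. Mir341 and Mir370 did not differ beyond their spread, and neither did Mir673 and Mir493. Within replicate 1 alone the ratio of Mir341 to Mir370 was 1.09 (95% counting interval 1.04 to 1.13), while within replicate 2 it was 1.05 (0.984 to 1.11). These levels count reads, each from 1 small RNA, and were not divided by the length of the hairpin. Per hairpin base the means were 9.82 CPM for Mir370 and 8.63 CPM for Mir341, the other way round, since their hairpins are 79 and 96 bases long.

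No reads were counted on the strand opposite to any of the 5 hairpins. A count of 0 allows up to 3 counts, or 1.07 CPM in replicate 2 and 0.648 CPM in replicate 1, for counting error only. No stretch of 20 bases of the 5 hairpins, on either strand, occurred in another annotated microRNA hairpin, and no copy of them was found among the annotated hairpins. Mir770 shared such a stretch with Meg3 itself, whose exon overlaps it.

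All 5 hairpins lay above the median of quantified hairpins in G and C. The Mir770 hairpin had 70.2% G and C, and 7 of the 327 quantified hairpins with a RefSeq sequence had more. Mir673 followed with 61.5%, Mir341 with 59.4%, Mir370 with 55.7% and Mir493 with 53.0%, against a median of 50.5% over those hairpins. Mir341 stood apart by a short repeat, and its hairpin is printed to show it, on GRCm38.p6 at chr12:109611500-109611595, plus strand, with each GGUC in capitals.
Mir341 hairpin: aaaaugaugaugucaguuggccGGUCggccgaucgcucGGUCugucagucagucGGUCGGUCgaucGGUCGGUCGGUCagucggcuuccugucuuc
GGUC, a motif picked after this sequence was seen, occurred 7 times in Mir341 and its reverse complement GACC not at all. No other of the 1005 RefSeq hairpins held more than 4 copies, and 24.9% held at least 1 on their own strand (37.2% on either strand). Each of the other 4 genes held 1 copy.

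The libraries were then set against each other, with ratios as replicate 2 over replicate 1. This asks whether reads of these pools differ beyond counting noise and tests no condition. All 5 genes were called at an adjusted p of 0.05 by Fisher's exact test, which set each gene's reads in both libraries beside the rest of the assigned reads, with the Benjamini-Hochberg method applied over the 380 quantified genes. The background was high, since 54.2% of all quantified genes were called, 27.1% as higher in replicate 2 and 27.1% as lower. Of the 5, Mir341, Mir370, Mir770 and Mir673 were called lower in replicate 2 and Mir493 higher. The median log2 ratio of the 5 was -0.24, beside 0.04 for all quantified genes.

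Mir341 had a log2 ratio of -0.34 ± 0.04 (counting SE), so replicate 2 stood at 0.792 of replicate 1 (adjusted p = 7.58e-18, Fisher's exact test). Mir370 followed at -0.28 ± 0.04 (adjusted p = 2.72e-12, Fisher's exact test), Mir673 at -0.24 ± 0.09 (adjusted p = 0.0187) and Mir770 at -0.22 ± 0.06 (adjusted p = 0.000613). The 95% counting intervals of these 4 ratios overlapped one another, from -0.41 to -0.26 for Mir341, -0.36 to -0.21 for Mir370, -0.43 to -0.06 for Mir673 and -0.34 to -0.10 for Mir770. Mir493 stood at 0.40 ± 0.10, from 0.21 to 0.60, apart from all of them (adjusted p = 0.000158). Genes with larger differences were common in this pair of libraries. In absolute size Mir493 ranked 106 among the 380 quantified genes and Mir341 ranked 132, and the median absolute log2 ratio of all of them was 0.24. The ranking includes genes with few counts, whose ratios carry large counting error.

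**Figure D2:**
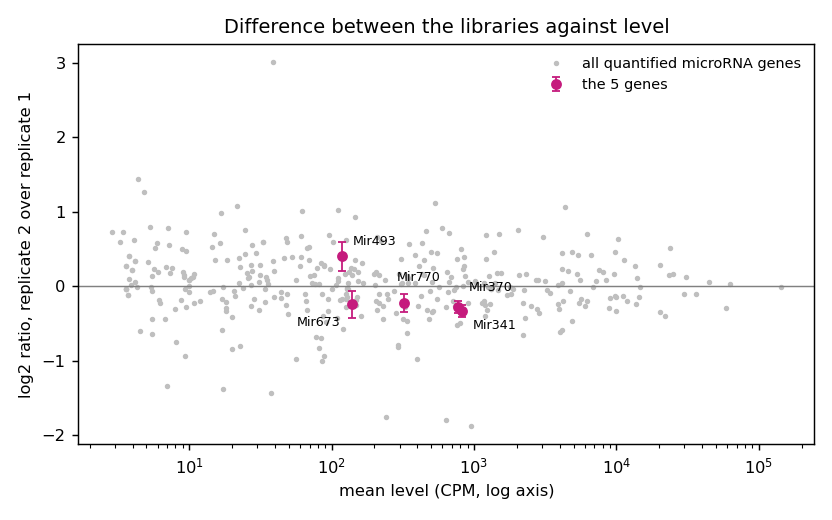
Log2 ratio of replicate 2 over replicate 1 against mean level (CPM, log axis) for the 380 quantified microRNA genes (grey points), with the 5 genes in magenta and bars for their 95% counting intervals. The 5 genes lie inside the cloud of all genes, 4 of them between -0.34 and -0.22 and Mir493 at 0.40.

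Shares within the 5 genes do not depend on how the libraries are scaled, and Mir493 again differed between the libraries. In replicate 2, Mir493 held 6.78% of the summed counts of the 5 genes, with a 95% Wilson interval of 6.15 to 7.47%, and in replicate 1 it held 4.30%, with an interval of 3.94 to 4.69%. For the other genes the intervals met or overlapped, which does not show that their shares were equal. Within a library the shares are parts of the same sum, so they are not independent. Mir770 held 15.0% and 14.7%, Mir673 6.37% and 6.33%, Mir341 36.8% and 38.9% and Mir370 35.1% and 35.8%, in replicate 2 and replicate 1 in each case. The ratio of Mir673 to Mir493 was 0.939 (0.813 to 1.09) in replicate 2 and 1.47 (1.31 to 1.65) in replicate 1, so the last 2 places in the order were exchanged in replicate 2. By contrast the ratio of Mir770 to Mir673 was 2.35 (2.08 to 2.66) in replicate 2 and 2.32 (2.12 to 2.53) in replicate 1.

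**Figure D3:**
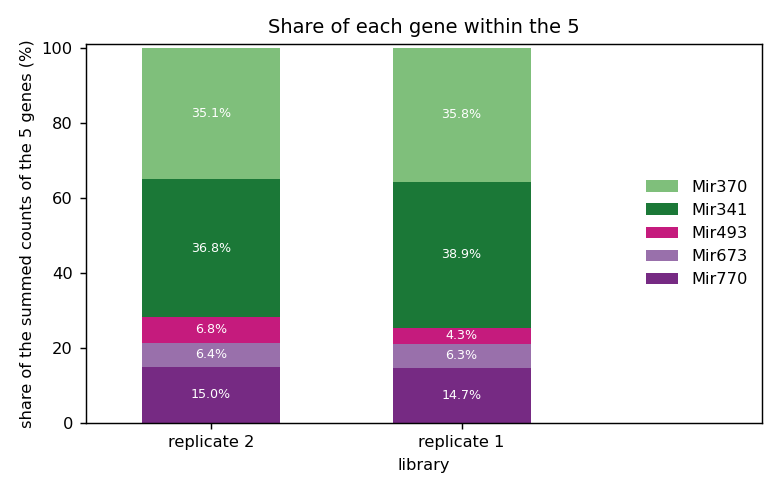
Share of each gene, in percent, of the summed counts of the 5 genes in replicate 2 (left bar) and replicate 1 (right bar), stacked in chromosome order from the bottom. Mir341 and Mir370 together hold 71.9% in replicate 2 and 74.7% in replicate 1, and the Mir493 band is wider in replicate 2.

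Summed over the 5 genes, the level was 1992 CPM in replicate 2 and 2376 CPM in replicate 1, a mean of 2184 ± 272 CPM (SD, n = 2). Of the assigned reads, this was 0.199% in replicate 2, with an interval of 0.194 to 0.205%, and 0.238% in replicate 1, with an interval of 0.233 to 0.242%. The Rian pair contributed 1432 and 1776 CPM to these sums, and Mir770, Mir673 and Mir493 together 560.3 and 601 CPM.

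Other microRNAs of the domain were taken from lists along the chromosome. Of 62 genes listed for the domain, the 5 included, 52 were in the tables. The 5 genes held 3.24% of the summed level of these 52 in replicate 2 and 3.43% in replicate 1. Of the other genes in the Meg3 and Rian stretch, 7 of 10 listed were in the tables and 4 were quantified, with 0 called higher and 2 lower in replicate 2 and a median log2 ratio of -0.16. Mir337 led them at 1187 CPM in replicate 2 and 1408 CPM in replicate 1, followed by Mir540 at 633 and 671 CPM, and both lie between Mir493 and Rtl1. Mir1906-1, inside Meg3 upstream of Mir770, had 0 counts in replicate 2 and 1 in replicate 1. Reads that map to more than 1 place are outside these counts, and copies of Mir1906-1 elsewhere were not looked for. Its counts thus do not show that the microRNA was absent. Mir1188, next after Mir341 in Rian, had 28 and 46 counts, or 9.98 and 9.94 CPM, far below the 732 and 924 CPM of Mir341 beside it.

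Of the listed genes antisense to Rtl1, on the plus strand, 4 were quantified, with mean levels from 1143 to 6055 CPM, and Mir432 had no assigned reads. They were led by Mir127 at 5493 CPM in replicate 2 and 6617 CPM in replicate 1 and Mir431 at 5010.2 and 5868 CPM. Among these 4, 3 were called lower in replicate 2 and 1 higher, with a median log2 ratio of -0.23. Mir3071, from the same list, lies on the minus strand like Rtl1 itself in GENCODE M21. Its reads were counted with release M4, and the strand that release gave it was not checked. Mir3071 stood lower at 208 CPM in replicate 2 and 250.4 CPM in replicate 1, and was called lower in replicate 2. In the Mirg cluster, led by Mir487b at 10581 and 11598 CPM and Mir369 at 5833 and 6670.1 CPM, 19 of 31 quantified genes were called lower and 4 higher, with a median of -0.20. Over all 45 quantified genes of the domain, Mir3071 included, 29 were called lower in replicate 2 and 6 higher, with a median of -0.22. The genes called higher under plain totals, named after their values were seen, were Mir493, Mir433 (log2 ratio 0.36 ± 0.03), Mir539 (0.52 ± 0.13), Mir379 (0.08 ± 0.02), Mir382 (0.04 ± 0.02) and Mir485 (0.14 ± 0.06). Mir379, Mir382 and Mir485 were not called higher with DESeq2 size factors, and the count of Mirg genes called higher ran from 1 with these factors to 6 with TMM factors. Mir493, Mir433 and Mir539 were called higher under every scaling tried. Whether the 5 genes differ from the rest of the domain was not tested, and these genes share their libraries and a common region.

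**Figure D4:**
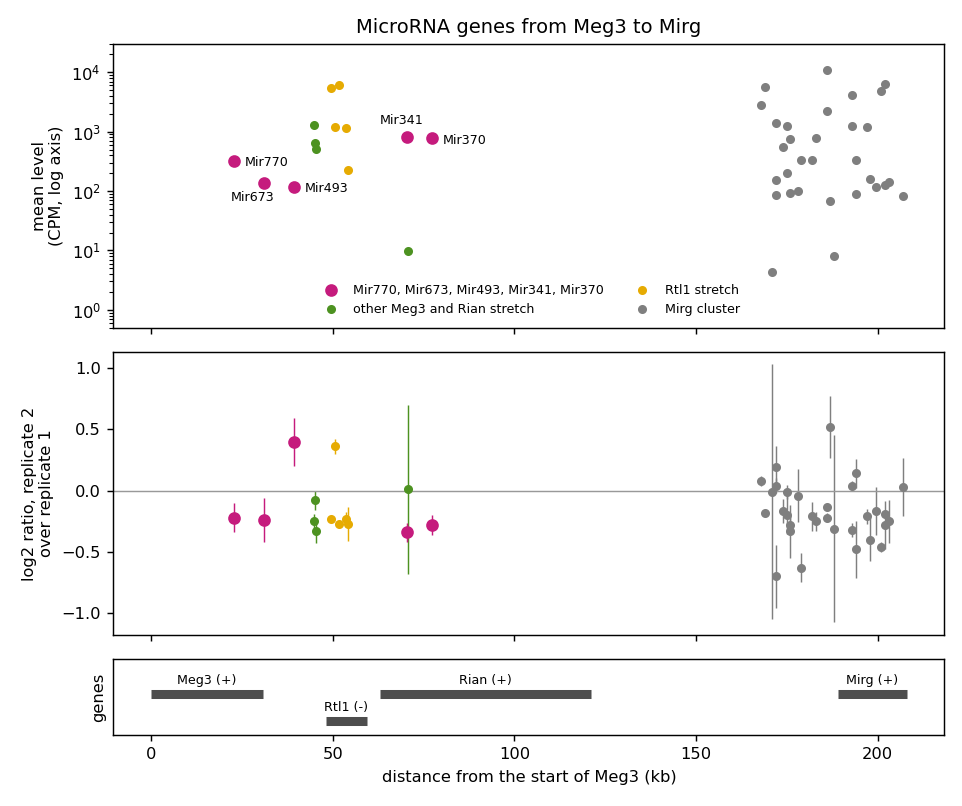
Mean level (CPM, log axis, top) and log2 ratio of replicate 2 over replicate 1 (middle, with bars for 95% counting intervals) of the 45 quantified microRNA genes against distance from the start of Meg3 in kb, with Meg3, Rtl1, Rian and Mirg drawn to scale below with their strands. The group around Rtl1 includes Mir3071, on the minus strand in GENCODE M21. Levels of the 5 genes (magenta) lie between 119 and 828 CPM, below Mir127 at 6055 CPM and Mir487b at 11089 CPM, and Mir493 and Mir433 lie above 0 in the middle panel while their neighbours lie below it.

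The genes most like each of the 5 were those nearest in log2(CPM + 1) over the 2 libraries, among all quantified genes. For Mir770 the nearest was Mir376c (305 CPM in replicate 2 and 352 CPM in replicate 1, distance 0.036), and for Mir673 it was Mir410 (130.1 and 154 CPM, distance 0.051). Mir543 was nearest to Mir370 (691 and 839 CPM, distance 0.027), and Mir300 to Mir341 (714 and 851 CPM, distance 0.12). All 4 belong to the Mirg cluster of the same domain. Mir493 was nearest to Mir200b on chromosome 4, an epithelial microRNA (153 and 99.4 CPM, distance 0.18). With 2 libraries such a likeness rests on 2 values per gene, and many genes have similar levels.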

How the data were processed

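The authors deposited raw counts of reads per microRNA gene, 1 table per library, from alignments to mm10 with annotation release M4, per the deposited read-me files. The sources used here name neither the aligner nor the counter. Of the 3 count columns, the own-strand one was used. Rows that name no gene (unmapped, multimapping, unassigned and ambiguous reads) held 58.2% of reads in replicate 2 and 56.9% in replicate 1 and stayed out of totals and tests. Multimapping reads alone were 33.4% in each.

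Symbols came from GENCODE M21 (1894 of 1973 identifiers found) and sequences from RefSeq (GRCm38.p6). CPM were counts per 1000000 assigned counts. Fisher's exact test (scipy 1.17.1, two-sided) with Benjamini-Hochberg adjustment ran over all genes with at least 10 counts in both libraries and was tested on simulated data. The simulated data held counting noise only, so they do not show how the test behaves with spread between pools. Wilson intervals (95%) and the floor of 3 counts cover counting error only. Alternatives were DESeq2 1.42.0 size factors, edgeR 4.0.16 TMM factors, either-strand counts, no count minimum, other denominators and each library alone.

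The 5 genes and the lists were chosen with earlier results of these data known. Besides the 5, the text names the 2 most abundant genes of each list, the nearest gene in level, genes sharing a seed and, otherwise, genes chosen after their values were seen.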

Additional observations from a re-analysis of the deposited data

Results flagged for a closer look

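Reads on the opposite strand lie outside the counts used above. Mir337, the most abundant of the other genes in the Meg3 and Rian stretch, had 15 opposite-strand counts in replicate 2 and 20 in replicate 1, more than the 3 that a count of 0 allows, where the annotation places Mir3544 on the minus strand. Mir299b, a minus-strand gene of the Mirg list, had 3651 opposite-strand counts in replicate 2 and 5659 in replicate 1, against 4 and 9 counts on its own strand, where the annotation places Mir299a on the plus strand. Own-strand levels and sums do not hold those reads, and Mir299b was not among the quantified genes of the domain.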

How the results depend on the processing

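The calls of all 5 genes between the libraries, 4 lower and 1 higher in replicate 2, kept their direction and their side of the threshold under DESeq2 size factors, TMM factors, either-strand counts and a minimum of 1 count in either library. Adjusted p-values over these 4 alternatives ran from 0.00613 to 0.0394 for Mir673, the closest to the threshold, and from 4.65e-05 to 0.000601 for Mir493. A level was said to move when it changed by at least 1 SD of the 2 libraries, and a count when it changed by more than 1.5 times. Of 46 values recomputed without leaving out a library, 11 moved, all of them levels under another denominator. The level of a single library lies within 1 SD of the mean of 2 by construction, so such values are not counted here. With Mir99a left out of the total, the mean levels were 377 CPM for Mir770, 162 CPM for Mir673, 966 CPM for Mir341, 905 CPM for Mir370 and 2549 CPM for the sum. Per 1000000 of all reads, unmapped ones included, they were 137 for Mir770, 58.9 for Mir673, 50.2 for Mir493, 352 for Mir341, 329.6 for Mir370 and 928 for the sum, as the larger denominator implies. With each library alone, 3 of the 5 genes (replicate 2) and 5 (replicate 1) kept their place in the order. No paired analysis was possible because the libraries form 1 group. With 2 libraries, leaving out a replicate leaves no difference to test.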
